A study of Homo sapiens with 4 samples.

Results

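The aminoacyl-tRNA synthetase mRNAs were the transcripts of 36 genes listed by name, of 20033 protein-coding genes in the annotation (GENCODE release 44). Of these, 20 encode enzymes of the cytosol and 16 encode enzymes of the mitochondrion. They were examined in OE-19, an established cell line from an adenocarcinoma of the esophagogastric junction, without further genotype or treatment, so that a single line stands for this tumor type. RNA immunoprecipitation followed by sequencing (RIP-seq) was performed with an antibody to IGF2BP3, and the labels gave 2 RIP replicates and 2 input samples without antibody. The labels also give a UV fixation of the cells, which the RIP methods of the study do not mention. Each RIP replicate had its own list of peaks, which are short genomic intervals where RIP reads piled up over the local background. A peak was assigned to a member when its summit, the highest base, lay in an exon of that gene. Member exons held 54 of 44622 peaks in replicate 1 and 51 of 42723 peaks in replicate 2. Read depth, and therefore counting error, was unknown, and input values were not analysed here. The amount of each mRNA in these cells was thus not measured, and a gene without a peak may still be bound. The study calls its RIP-seq replicates biological, without saying whether they were separate cultures. Peaks were listed down to a −log10 p of 2.0 whatever their q, so that a listed peak need not have passed a limit on q.

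Aminoacyl-tRNA synthetases join each amino acid to its tRNA, the step at which the genetic code is read into protein. Human cells keep a largely separate set for the mitochondrion, encoded in the nucleus and named with a final 2, whereas KARS1 and GARS1 supply both compartments from a single gene. Several cytosolic enzymes are bound together in the multisynthetase complex. The enzymes fall into class I and class II, which differ in the fold of the catalytic domain, and EPRS1, which charges both glutamate and proline, joins one of each. IGF2BP3 is an RNA-binding protein that reads m6A, a methyl mark on adenosine often found in the letters GGAC, and that can stabilise the mRNAs it binds.

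The sequences that carried the clearest peaks are shown first. They are the stretches of coding sequence (CDS) where peaks of both replicates overlapped at some of the highest fold values, together with the peaks of a single replicate with a q of at most 0.05 in RARS2 exon 13 and WARS2 exon 4. All are on the minus strand of GRCh38, are taken from the GENCODE release 44 transcripts, are cut to the exon and the CDS, and are written from 5′ to 3′ in the sense of the mRNA. Capitals mark GGAC and CACTC, a CA-rich run of letters.
WARS2 exon 2, chr1:119076375-119076582: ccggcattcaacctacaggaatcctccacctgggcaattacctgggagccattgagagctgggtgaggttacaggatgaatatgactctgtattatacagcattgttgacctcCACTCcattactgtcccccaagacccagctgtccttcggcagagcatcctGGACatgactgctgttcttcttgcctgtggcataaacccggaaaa
WARS2 exon 3, chr1:119045589-119045638: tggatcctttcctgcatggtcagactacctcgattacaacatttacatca
WARS2 exon 4, chr1:119042264-119042349: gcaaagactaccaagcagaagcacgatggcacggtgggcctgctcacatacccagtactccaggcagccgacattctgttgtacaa
RARS2 exon 7, chr6:87545616-87545682: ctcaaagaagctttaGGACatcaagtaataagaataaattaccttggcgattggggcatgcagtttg
RARS2 exon 13, chr6:87520180-87520234: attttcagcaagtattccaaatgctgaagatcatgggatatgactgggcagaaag
RARS2 exon 17, chr6:87518169-87518216: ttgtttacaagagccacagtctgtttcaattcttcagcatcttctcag
EARS2 exon 3, chr16:23544514-23544703: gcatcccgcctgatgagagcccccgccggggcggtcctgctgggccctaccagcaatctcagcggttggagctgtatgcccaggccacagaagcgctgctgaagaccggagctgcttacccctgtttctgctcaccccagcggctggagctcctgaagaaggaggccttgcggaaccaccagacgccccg
KARS1 exon 14, chr16:75627895-75627947: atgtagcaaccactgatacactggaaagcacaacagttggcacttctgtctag
LARS1 exon 2, chr5:146177576-146177603: atgggatactgagagagtgtttgaggtc
WARS1 exon 6, chr14:100353757-100353821: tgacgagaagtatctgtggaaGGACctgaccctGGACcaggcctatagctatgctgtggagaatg
GGAC stood in WARS2 exon 2, in RARS2 exon 7 and 2 times in WARS1 exon 6, and in none of the other stretches shown. CACTC stood in WARS2 exon 2. The overlaps in EARS2 exons 2 and 4 are not shown, although their mean folds of 3.47 and 3.43 were above the 3.39 of WARS1 exon 6. Both of these also held GGAC. A match is a description of the letters and not a binding site.

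To determine how widely the synthetase mRNAs were recovered with IGF2BP3, members with at least 1 exonic peak were counted. In replicate 1, 13 of 36 members (36.1%) had a peak, next to 32.6% of all protein-coding genes. In replicate 2, 16 members (44.4%) had a peak, next to 31.7%. Both replicates gave a peak in 12 members (33.3%), next to 28.0%, so the share of members lay near that of protein-coding genes as a whole. The 7 cytosolic members with peaks in both replicates were EPRS1, FARSB, IARS1, KARS1, LARS1, WARS1 and TARS3, and the 5 mitochondrial members were EARS2, LARS2, NARS2, RARS2 and WARS2.

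A further 5 members had peaks in a single replicate. The valine enzyme VARS1 had 1 peak in replicate 1, in its 5′ UTR. The asparagine enzyme NARS1, the mitochondrial cysteine enzyme CARS2, the mitochondrial isoleucine enzyme IARS2 and the mitochondrial proline enzyme PARS2 had 2, 1, 3 and 1 peaks in replicate 2. The NARS1 peak in exon 2 reached a fold of 4.50 with a q of 0.0864. This was above the highest fold of each other cytosolic member in either replicate, although replicate 1 held no peak in NARS1.

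No exonic peak was listed in either replicate for 19 members. Among cytosolic enzymes these were AARS1, CARS1, FARSA, GARS1, HARS1, MARS1, QARS1, RARS1, SARS1, TARS1 and YARS1, for alanine, cysteine, phenylalanine, glycine, histidine, methionine, glutamine, arginine, serine, threonine and tyrosine. Among mitochondrial enzymes these were AARS2, FARS2, HARS2, MARS2, SARS2, TARS2, VARS2 and YARS2. FARSA and FARSB encode the alpha and beta subunits of 1 cytosolic enzyme for phenylalanine, and only FARSB had peaks.

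**Figure D1:**
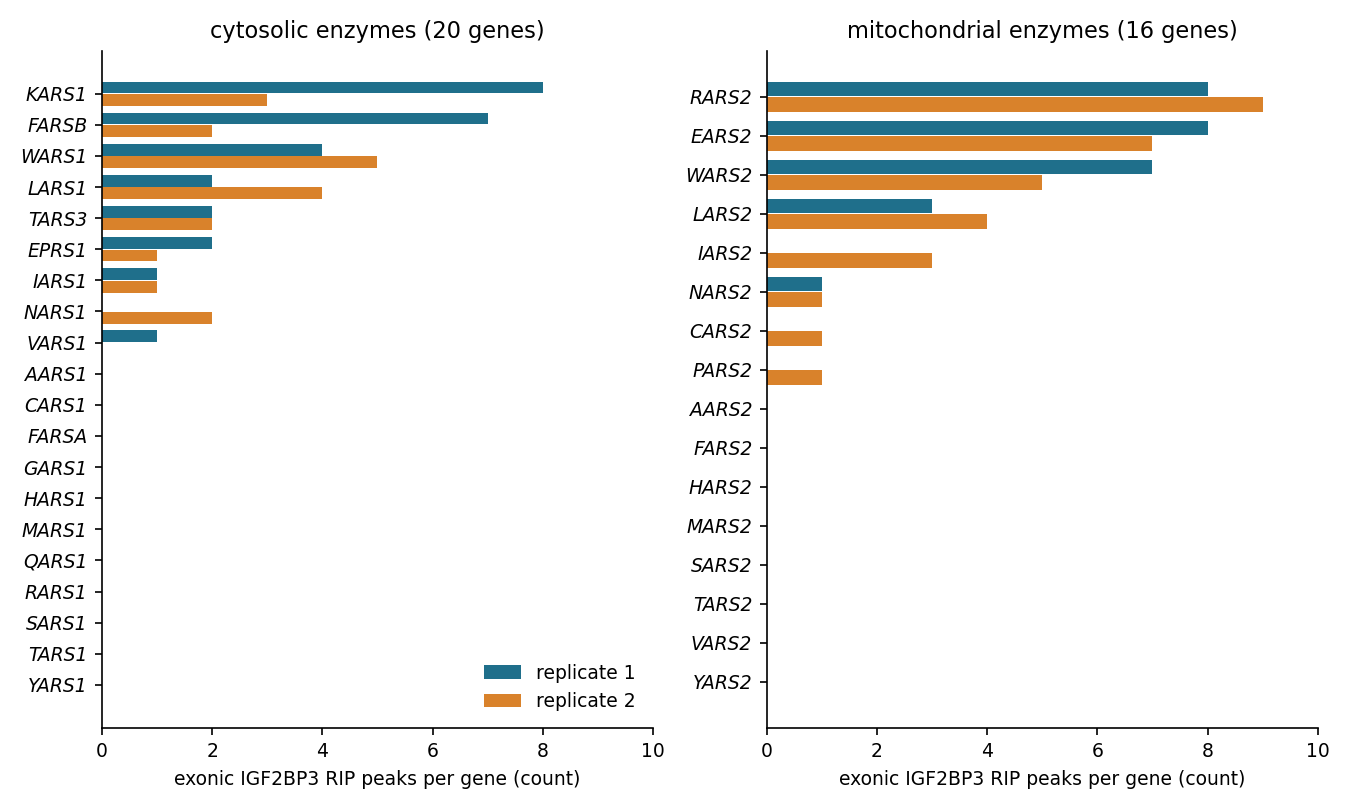
Exonic IGF2BP3 RIP peaks per gene (x axis, count) for 20 cytosolic members (left) and 16 mitochondrial members (right), with 1 bar for each replicate. KARS1 and FARSB had 8 and 7 peaks in replicate 1 and 3 and 2 in replicate 2, whereas RARS2, EARS2 and WARS2 had many peaks in both, and 19 members had none.

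The caller's q, which is corrected for multiple testing, separated the members further. A peak with a q of at most 0.05 was present in 2 of 36 members (5.56%) in either replicate, next to 10.3% of protein-coding genes. The same 2 members, RARS2 and WARS2, had such a peak in both replicates, a share of 5.56% next to 4.93%. Both encode mitochondrial enzymes, so that 2 of 16 mitochondrial members (12.5%) and 0 of 20 cytosolic members carried one. By q, most member peaks were weak, as were most of all listed peaks. A q of 1 was given to 37 of 54 peaks (68.5%) in replicate 1 and 30 of 51 (58.8%) in replicate 2, next to 61.5% and 66.7% of all listed peaks.

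WARS2 charges mitochondrial tRNA with tryptophan and has a CDS of 361 codons, stop codon included, in 6 exons. It held 7 peaks in replicate 1 and 5 in replicate 2, and its highest fold was 4.88 in replicate 1 and 4.68 in replicate 2 (4.78 ± 0.141, SD, n = 2). For WARS2 this was at least as high as in 84.5% and 84.8% of all protein-coding genes with a peak. In exon 2 the summits of the replicates lay 1 nt apart, at codons 107 and 106, with folds of 4.44 and 4.68 and q values of 0.0427 and 0.0294. This was the single member site at which both replicates passed a q of 0.05.

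The strongest WARS2 peak of replicate 1, in exon 3, had a fold of 4.88 and a q of 7.05e-05, the lowest q of all member peaks. The overlapping peak of replicate 2 had a fold of 2.61 and a q of 1. In exon 4 a peak was listed in replicate 2, with a fold of 3.93 and a q of 0.0294, and none in replicate 1. The replicates therefore agreed on the gene and on exon 2, and less on the height of the peaks in the exons that follow. Peaks in exon 6 also lay in the 3′ UTR, with folds of 3.24 and 3.94 in replicate 1 and 3.65 in replicate 2. A further peak of replicate 1, in exon 1, also lay in an exon of WARS2-AS1, an antisense gene, and the lists carry no strand.

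RARS2, the mitochondrial arginine enzyme, had 8 peaks in replicate 1, as many as EARS2 and KARS1, and 9 in replicate 2, more than any other member, all within the CDS. Its highest fold was 4.33 and 4.75 (4.54 ± 0.298, SD, n = 2). For RARS2 this was at least as high as in 75.7% and 85.9% of all protein-coding genes with a peak. The summits fell in 13 of its 20 exons over both lists, with 8 exons in replicate 1, 9 in replicate 2 and 4 in common, so that the replicates spread over the same CDS but often over neighbouring exons.

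In RARS2 exon 7 the summits were 4 nt apart, with folds of 4.0 and 3.81 and q values of 0.00543 and 0.0864. Exon 13 held the peak of replicate 2 with a fold of 4.75 and a q of 0.00581, and no peak of replicate 1. Exon 17 was shared, with folds of 4.33 and 3.33 and q values of 0.125 and 0.912. RARS1, which encodes the cytosolic arginine enzyme, had 0 peaks in both replicates.

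EARS2 charges mitochondrial tRNA with glutamate. It had 8 peaks in replicate 1 and 7 in replicate 2, with highest folds of 3.76 and 3.71 (3.73 ± 0.0355, SD, n = 2), and the lowest q was 0.716 and 0.156. Peaks of both replicates overlapped at 5 sites, in exons 2, 3, 4, 8 and 9, the last of these in the 3′ UTR, 30 nt past the stop codon in replicate 1 and 13 nt past it in replicate 2. The summits of these overlapping peaks lay 17 nt apart in exon 9, 27 nt in exon 3, 39 nt in exon 8 and 59 nt in exon 2. In exon 4 they lay 325 nt apart. EARS2 thus had many peaks that overlapped between replicates, each with a large q, and not all with summits close together.

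The other mitochondrial members with peaks in both replicates had fewer. LARS2, for leucine, had 3 and 4 peaks with highest folds of 2.67 and 2.61, and 1 shared site, in exon 18. NARS2, for asparagine, had 1 peak in each replicate, with folds of 3.09 and 2.68, whose summits lay 519 nt apart along the mRNA. The single peaks of NARS2 therefore marked no common position.

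Among cytosolic members, KARS1 encodes the lysine enzyme of both compartments and had 8 peaks in replicate 1 and 3 in replicate 2. Its strongest peaks overlapped in exon 14 at the stop codon, with folds of 3.82 and 3.46 (3.64 ± 0.249, SD, n = 2) and q values of 0.483 and 1. A second site was shared in exon 11, with folds of 2.64 and 2.62 and summits 8 nt apart.

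WARS1, the cytosolic tryptophan enzyme, had 4 and 5 peaks with highest folds of 4.12 and 3.66 (3.89 ± 0.321, SD, n = 2) and shared sites in exons 6 and 9. In exon 6 the folds were 3.79 and 3.0, and the summit of replicate 1 also lay in an exon of a second gene, listed only as ENSG00000258666. LARS1, the leucine enzyme of the cytosol, had 2 and 4 peaks with highest folds of 3.83 and 4.29 (4.06 ± 0.326, SD, n = 2). Its shared site was near the start of the CDS, in exon 2 at codons 28 and 31, with folds of 3.83 and 3.33.

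The peaks of FARSB did not recur in place. Replicate 1 held 7 peaks, in exons 5 to 14, with a highest fold of 3.86, and replicate 2 held 2 peaks, in exons 15 and 16, with a highest fold of 3.02 (mean 3.44 ± 0.589, SD, n = 2), and 0 peaks overlapped. EPRS1 had 2 and 1 peaks with highest folds of 2.74 and 3.24, and TARS3, a relative of the threonine enzyme TARS1, had 2 in each replicate with 2.41 and 2.43, also with 0 overlaps. IARS1, for isoleucine, had 1 peak in each replicate in its 3′ UTR, and these overlapped with folds of 2.0 and 2.02.

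**Figure D2:**
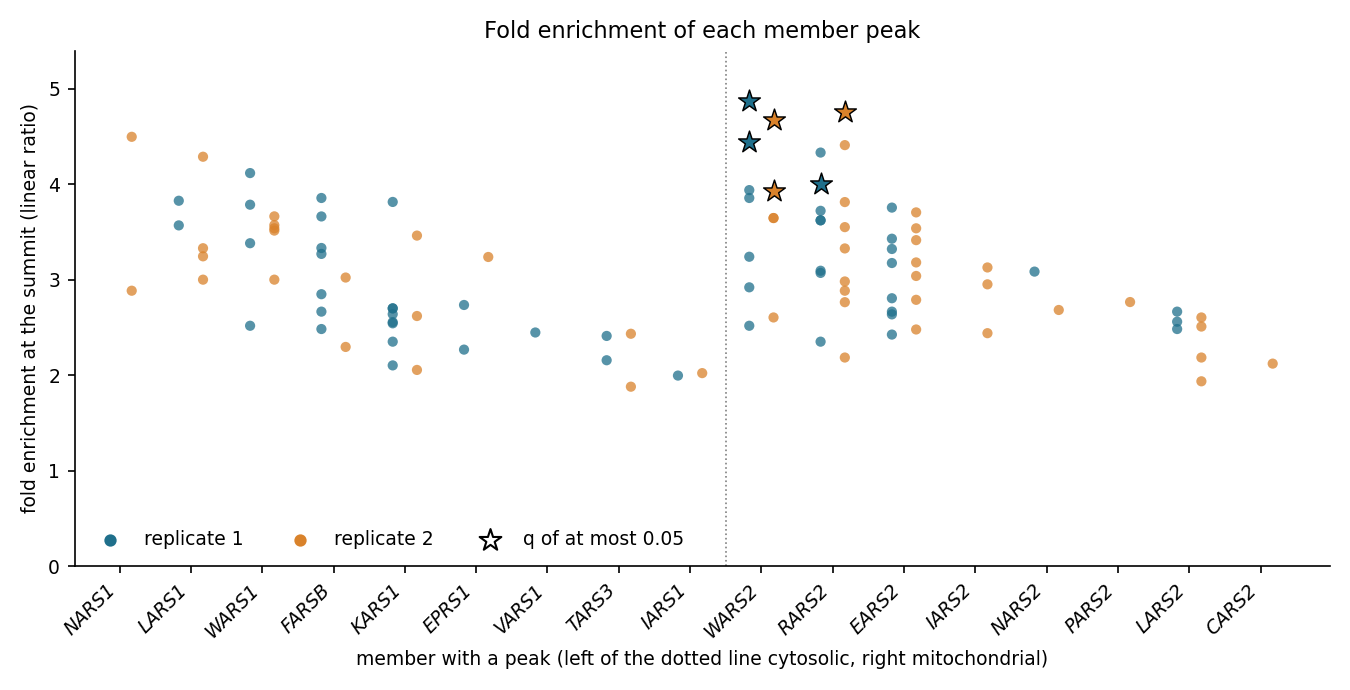
Fold enrichment at the summit (y axis, linear ratio) of each exonic peak of the 17 members with a peak, with replicates in different colors and stars for a q of at most 0.05. The 6 stars lie in WARS2 and RARS2, between 3.93 and 4.88, and other peaks of similar fold, such as that of NARS1 at 4.50, had a larger q.

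To compare the compartments, peaks were counted per group and divided by CDS length. Cytosolic members held 27 and 20 peaks (23.5 ± 4.95, SD, n = 2), and mitochondrial members 27 and 31 (29.0 ± 2.83). CDS peaks per kb were 0.503 and 0.356 in cytosolic members (0.430 ± 0.104) and 0.685 and 0.881 in mitochondrial members (0.783 ± 0.138). Both mitochondrial values were above both cytosolic values, and all of them were below the value of all protein-coding genes, 0.921 ± 0.0117 (SD, n = 2). Both densities depended on a few genes. Without RARS2 and WARS2 the mitochondrial density was 0.395 ± 0.152, below the cytosolic mean. Without FARSB and KARS1 the cytosolic density was 0.249 ± 0.0641, so that with all 4 genes left out the mitochondrial mean was again the higher, by less than the SD of the mitochondrial replicates. Genes are not replicates, so no test was made between the compartments.

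The order of the compartments by height of peaks differed between the replicates. The median over genes of the highest fold was 3.28 and 3.35 in cytosolic members (3.31 ± 0.0532, SD, n = 2) and 3.76 and 2.95 in mitochondrial members (3.35 ± 0.572). Over all protein-coding genes with a peak it was 3.42 ± 0.0781. These groups overlapped within the spread of the replicates.

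Recurrence between replicates was lower in the synthetase mRNAs than over the annotation. Of member peaks, 38.9% in replicate 1 and 39.2% in replicate 2 overlapped a peak of the other replicate by at least 1 bp. The shares for all protein-coding genes were 60.9% and 64.7%. Cytosolic peaks overlapped in 22.2% and 30% and mitochondrial peaks in 55.6% and 45.2%. The values of replicates 1 and 2 count largely the same overlaps from either list. They differ mainly by the number of peaks listed, so no SD is given. The 21 overlapping pairs of peaks lay in 8 genes, with 6 pairs in 4 cytosolic genes (IARS1, KARS1, LARS1 and WARS1) and 15 pairs in 4 mitochondrial genes (EARS2, LARS2, RARS2 and WARS2). FARSB and KARS1 together gave 15 of the 27 cytosolic peaks in replicate 1, of which 2 recurred.

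Enzyme pairs for the same amino acid were set side by side. For arginine, RARS1 had 0 peaks and RARS2 had 8 and 9. For tryptophan, WARS1 and WARS2 both had peaks in both replicates, and only the latter had a q of at most 0.05. For leucine, LARS1 and LARS2 both had peaks, with highest folds of 3.83 and 4.29 in the former and 2.67 and 2.61 in the latter. For isoleucine and asparagine, a replicate 1 peak was missing for IARS2 and for NARS1. For alanine, histidine, methionine, serine and tyrosine, neither member of the pair had a peak.

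Of the 7 members of the multisynthetase complex, 4 had peaks in both replicates (EPRS1, IARS1, KARS1 and LARS1), and MARS1, QARS1 and RARS1 had none. By catalytic class, 7 of 18 class I members and 4 of 17 class II members had peaks in both replicates. These counts stand next to 28.0% of all protein-coding genes and no test was made between the groups. The CDS peak density of the complex was 0.460 ± 0.171 per kb (SD, n = 2), near that of the 13 other cytosolic members, 0.407 ± 0.0523, and next to 0.921 over all protein-coding genes. The densities were 0.597 and 0.836 per kb in class I and 0.564 and 0.251 per kb in class II, and class I includes RARS2 and WARS2.

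Along the mRNA, member summits lay mainly in the CDS, with 45 of 54 in replicate 1 and 44 of 51 in replicate 2 (84.8% ± 2.08, SD, n = 2), next to 77.5% ± 1.03 for all protein-coding genes. The 3′ UTR held 7 and 6 summits (12.4% ± 0.847), next to 18.8% ± 0.947, and the 5′ UTR held 2 and 1. When each CDS was divided into 3 equal lengths, the summits numbered 11, 15 and 19 from the first to the last in replicate 1 and 11, 14 and 19 in replicate 2. Over all protein-coding genes the shares were 28.4%, 35.3% and 36.3%. Peaks extended past the end of the exon that held the summit in 18 and 22 cases.

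**Figure D3:**
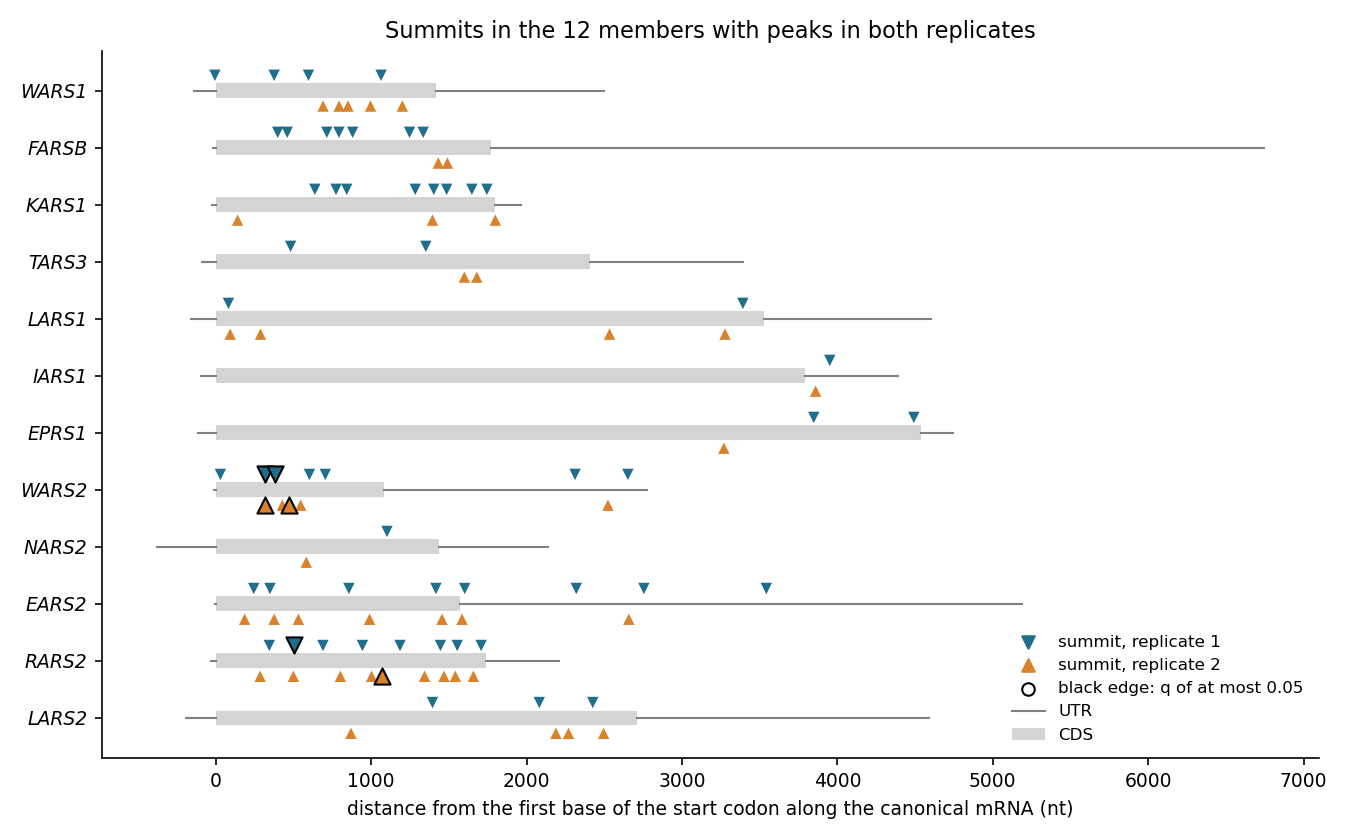
Summits of replicate 1 (above) and replicate 2 (below) along the canonical mRNA of the 12 members with peaks in both replicates (x axis, nt from the start codon), with cytosolic members in the upper 7 rows. Grey bars are the CDS, lines are UTRs and black edges mark a q of at most 0.05; summits of RARS2 spread over the whole CDS, whereas those of FARSB lay in different parts of the CDS in the replicates.

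The base composition of the CDS was then compared between members with and without peaks. The median content of G and C was 45.8% in the 12 members with peaks in both replicates (from 41.5% to 59.9%) and 53.3% in the 19 members with none (from 41.0% to 62.1%). All protein-coding genes showed the same order, with 49.0% and 54.6%. For CDS length the orders differed. The median was 1782 nt in members with peaks in both replicates and 1983 nt in members with none. Over all protein-coding genes it was 1824 and 1071 nt. Split at the members' median of 51.4%, 11 of the 18 members with lower content (61.1%) and 1 of the 18 with higher content (5.56%), EARS2, had peaks in both replicates, next to 36.4% and 21.1% of all protein-coding genes split at the same value. By CDS peaks per kb, however, members lay below all protein-coding genes on either side of the split. With lower content the densities were 1.02 and 0.941, next to 1.20 and 1.20. With higher content they were 0.105 and 0.158, next to 0.675 and 0.637. Low content was not followed by a peak in each case. RARS1 had the lowest content of the 36 members, 41.0%, and no peak, whereas RARS2, at 41.5%, had the most over both replicates. Mitochondrial members had a higher median (54.2%) than cytosolic members (49.0%). The part of base composition, CDS length, mRNA abundance or depth in these counts was not tested.

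**Figure D4:**
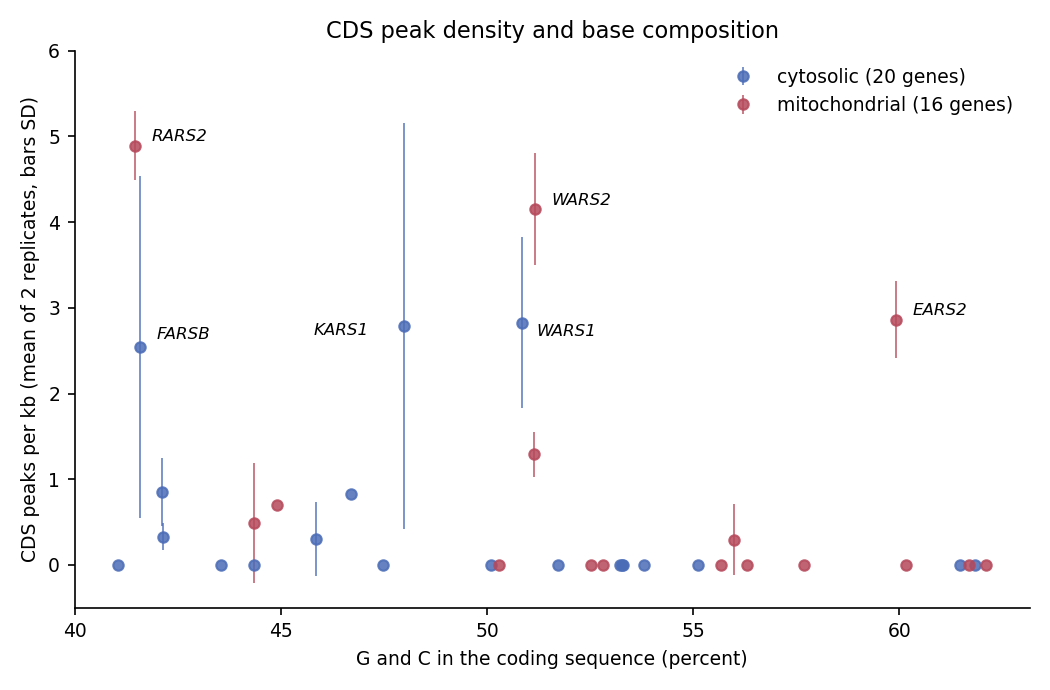
CDS peaks per kb (y axis, mean of 2 replicates with SD) against the content of G and C in the CDS (x axis, percent) for the 36 members. The densities of RARS2 and WARS2 were 4.89 and 4.16 per kb, and EARS2 at 59.9% is the single member above 51.4% with peaks in both replicates.

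The letters around the summits were examined in windows that reached 50 nt to either side on the mRNA, in its own sense. GGAC, which TGGAC contains, was present in 34.6% and 41.2% of member windows, next to 31.9% and 32.1% of windows of all protein-coding genes. TGGAC was present in 11.5% and 13.7% of member windows (6 of 52 and 7 of 51), next to 12.9% and 13.0%. CACTC was present in 2 member windows in each replicate, 3.85% and 3.92%, next to 8.71% and 8.28%. Shares this small rest on few windows, and TGGAC was about as frequent in members as elsewhere.

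Other genes of tRNA charging were examined as a list of 16, of which 4 (25.0%) had peaks in both replicates, near the 28.0% of all protein-coding genes, and 0 had a q of at most 0.05 in either replicate, next to 10.3%. AIMP1, a scaffold of the multisynthetase complex, had 1 peak in each replicate with folds of 3.17 and 4.06, and the scaffolds AIMP2 and EEF1E1 had none. QRSL1, a subunit of the amidotransferase that makes mitochondrial glutaminyl-tRNA in place of a direct enzyme, had 5 and 2 peaks with highest folds of 3.83 and 3.33, and its partners GATB and GATC had none. MTFMT, which formylates the mitochondrial initiator tRNA, had 3 and 6 peaks with highest folds of 3.45 and 3.30. SEPSECS, which completes selenocysteine on its tRNA, had 4 and 3, with 3.80 and 2.96, and PSTK, the kinase before it, had none. DTD2, which clears mischarged tRNA, had 2 peaks in replicate 1, and TRNT1 and ELAC2, which work on the 3′ end of tRNA, had 1 each in replicate 2. The editing genes AARSD1 and DTD1 and the elongation factors EEF1A1 and TUFM, which bring charged tRNA to the ribosome, had none.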

How the data were processed

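RIP-seq peaks of IGF2BP3 in OE-19 cells were taken as deposited, 1 list per RIP replicate, in hg38. Per the study's methods reads were mapped with Tophat2 and peaks called with MACS2 at default settings, whereas the submitters' processing notes name fastp, HISAT2 and MACS2. The caller's control library is not given in the sources used here. The deposited fold enrichment is a ratio, at the summit, of RIP pileup over local background. Each deposited −log10 p-value and −log10 q came from the authors' caller, and the lowest −log10 p was 2.00 in both lists. MACS2 by default keeps peaks by q, at 0.05, so the lists, in which most peaks had a larger q, disagree with the stated default settings and may have been limited by the uncorrected p. The deposited score repeated the −log10 p, as the whole part of 10 times its value in 100% of peaks. The deposited summit offset was used to place summits.

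Summits were assigned to exons of any GENCODE 44 transcript without regard to strand, and positions used the canonical transcript. Assignment was tested on simulated data. Values are described as mean and SD of 2 replicates, and no test was made. Peaks counted as shared when they overlapped by 1 bp. Python 3.11.15, numpy 2.4.6, pandas 2.3.3 and matplotlib 3.10.9 were used. The members, lists and alternatives were chosen with earlier results of these data known. Values were given in full for members with a peak in both replicates, ranked by mean highest fold, for those with a q of at most 0.05 in both and for the highest CDS densities. Of the sequences, KARS1 exon 14 followed a rule on overlap of the strongest peaks, and the others were chosen after their values were seen. The alternatives tried were stricter limits on q and fold, other assignments of summits, another overlap, the whole mRNA as length, each replicate alone and members left out.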

Additional observations from a re-analysis of the deposited data

Results flagged for a closer look

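Within the span of YARS2, the mitochondrial tyrosine enzyme with no exonic peak, 9 summits of replicate 1 and 4 of replicate 2 lay outside its exons, more than the 3 counts taken as a floor. All 9 and all 4 lay in exons of another gene, DNM1L, a dynamin-related GTPase of mitochondrial fission, or in replicate 1 also ENSG00000275854. Their folds ran from 2.52 to 4.51 in replicate 1 and from 2.57 to 3.97 in replicate 2, and 1 summit of replicate 1 had a q of at most 0.05. Assigned by the gene span and not by exons, YARS2 would thus have counted as a gene with peaks in both replicates.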

How the results depend on the processing

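Counts of members and of peaks were taken as moved beyond 1.5 times the reported count, and densities, folds and shares beyond 1 SD of the replicates. By these limits 44 alternative values moved and 84 did not. Some of the 84 could not have moved. With 2 replicates, leaving out 1 cannot shift a mean density, fold or share by more than 1 SD. Leaving out members of 1 compartment cannot change values of the other. For the share of overlapping peaks, the SD is no spread of recurrence, because both lists count largely the same overlaps. With peaks of q at most 0.05, 2 members (0 cytosolic, 2 mitochondrial) had peaks in both replicates, CDS peaks per kb were 0 in cytosolic and 0.0979 in mitochondrial members, 33.3% of peaks overlapped, and 100% of summits lay in the CDS and 0% in the 3′ UTR. With a fold of at least 5, or a −log10 q of at least 5, 0 member peaks were left, so every member count and both densities were 0 and no share or fold could be computed. Assignment by any overlap, by exons of exactly 1 gene or by canonical transcripts changed no count of members. Over the whole mRNA the mitochondrial density was 0.610 peaks per kb, and with 50% of both peaks as the overlap, 26.7% of peaks were shared. Leaving out replicates, densities ran from 0.356 to 0.503 (cytosolic) and from 0.685 to 0.881 (mitochondrial). Alternatives chosen after seeing the data left members out. Without RARS2 and WARS2, 3 mitochondrial members had peaks in both replicates, 0 members had a q of at most 0.05 in either or both replicates, the mitochondrial density was 0.395 and 31.6% of peaks overlapped. Without FARSB and KARS1, the cytosolic density was 0.249, 43.9% of peaks overlapped, 81.9% of summits lay in the CDS and 14.4% in the 3′ UTR. Without KARS1, GARS1 and TARS3 the cytosolic density was 0.327. No paired analysis was possible because the results come from no test. Unknown depth limits all counts.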

Other observations

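Some peaks of different members carried identical values. The 54 member peaks of replicate 1 held 46 distinct pairs of fold and −log10 p, and 5 of these pairs occurred in more than 1 gene. The 51 peaks of replicate 2 held 45 distinct pairs, of which 5 occurred in more than 1 gene. For example, a fold of 2.67 with a −log10 p of 3.46 was listed in EARS2, FARSB and LARS2 in replicate 1.

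The annotation named 14 pseudogenes after a member, such as KARS1P1 and WARS2P1, and 0 peaks had a summit in their exons.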
